A study of Mus musculus with 18 samples.

Results

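Erythroid factors and globin genes were followed through RNA of mouse haematopoietic stem cells (HSCs) that lacked or carried Mettl3, the catalytic subunit of the enzyme that writes N6-methyladenosine (m6A) on messenger RNA. The members were taken by name: the transcription factors Klf1 and Gata1, the erythropoietin receptor gene Epor, the carbonic anhydrase genes Car1 and Car2, the alpha globin genes Hba-a1 and Hba-a2, and the beta globin genes Hbb-bs and Hbb-bt. Of these 9 genes, 8 had a row among the 23038 genes of the series. Hbb-bs was found by its gene ID, because the tables list it under its older name Beta-s, and no row was found for Hbb-bt by name or ID.

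The series holds 18 libraries in 6 groups of 3, all from adult C57BL/6 bone marrow. The Mettl3-deficient HSCs came from Mx1-cre; Mettl3fl/fl mice, in which the interferon-responsive Mx1 promoter drives Cre, so deletion is not limited to HSCs, and the other HSCs came from wild-type mice. Both genotypes received 5 injections of 10 µg pIpC, an interferon inducer, and were killed 10 days after the last one. From 3000 sorted Lineage- Sca1+ cKit+ CD150+ CD48- cells, polyadenylated RNA was split with an anti-m6A antibody into an m6A-tagged and an unbound fraction, beside the input. The submitters call the 3 samples of a group biological replicates. Values are RPKM, the reads per kilobase of gene and per 1e6 reads, and each deposited value is the mean of 3 libraries.

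Klf1 and Gata1 are DNA-binding factors that switch on the red cell programme, and globin genes are among their best-known targets. Klf1 binds CACCC boxes and Gata1 binds GATA sites. Epor carries the survival signal of erythropoietin into red cell progenitors. Carbonic anhydrases convert carbon dioxide and water to bicarbonate; Car1 is a marker of the erythroid lineage, and Car2 is also made in many other cells. HSCs sit above this programme, and globin RNA is made in bulk only by the maturing red cells that arise from them.

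The promoters of 4 members are shown because their levels are compared below: Klf1, Gata1 and Hbb-bs were lower in Mettl3-deficient input, and Hba-a2 has a near-identical copy in Hba-a1. The windows run from 250 bases before to 50 bases after an annotated start, 5′ to 3′, from RefSeq on GRCm38.p6. The Gata1 window lies inside its gene span of 7959260 to 7976663, so its start is not the outer end of that span. Capitals mark CACCC boxes, GATA sites (GATAA or else GATAG, in either case with A or T just before it) and CCAAT boxes, each searched on both strands, so the reverse complements also stand in capitals. No 2 matches overlap in these 4 windows.
Klf1 promoter, chr8:84901732-84902031, plus strand: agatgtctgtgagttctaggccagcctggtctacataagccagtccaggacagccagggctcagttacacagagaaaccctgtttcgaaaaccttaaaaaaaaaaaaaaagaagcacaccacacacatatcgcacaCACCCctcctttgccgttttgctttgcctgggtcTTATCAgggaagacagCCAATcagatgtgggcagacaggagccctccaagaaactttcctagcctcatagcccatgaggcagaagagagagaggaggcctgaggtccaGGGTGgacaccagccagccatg
Gata1 promoter, chrX:7967861-7968160, minus strand: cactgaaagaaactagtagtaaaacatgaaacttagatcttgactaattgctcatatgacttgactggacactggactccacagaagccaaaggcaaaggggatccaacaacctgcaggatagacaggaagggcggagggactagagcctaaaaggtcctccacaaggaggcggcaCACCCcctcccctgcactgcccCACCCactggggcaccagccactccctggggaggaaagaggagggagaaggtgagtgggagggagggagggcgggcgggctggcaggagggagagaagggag
Hba-a2 promoter, chr11:32296242-32296541, plus strand: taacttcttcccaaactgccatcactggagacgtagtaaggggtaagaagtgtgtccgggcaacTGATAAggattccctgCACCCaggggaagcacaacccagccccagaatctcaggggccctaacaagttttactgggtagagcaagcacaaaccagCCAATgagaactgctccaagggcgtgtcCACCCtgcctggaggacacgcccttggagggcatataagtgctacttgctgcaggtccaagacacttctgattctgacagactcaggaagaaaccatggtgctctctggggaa
Hbb-bs promoter, chr7:103827879-103828178, minus strand: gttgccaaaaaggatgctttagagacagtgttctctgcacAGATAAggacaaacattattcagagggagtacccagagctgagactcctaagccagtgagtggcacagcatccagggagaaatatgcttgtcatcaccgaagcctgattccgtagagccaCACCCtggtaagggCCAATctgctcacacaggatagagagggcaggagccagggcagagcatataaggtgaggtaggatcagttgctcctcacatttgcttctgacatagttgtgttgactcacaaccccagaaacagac

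RefSeq windows were found for 7 of the 9 members (Klf1, Gata1, Epor, Hba-a1, Hba-a2, Hbb-bs and Hbb-bt). CACCC was present in all 7 of these windows, against 57.5% of the 32851 mouse promoter windows of 300 bases. A GATA site was present in 5 of the 7, against 29.8% of all windows, and CCAAT in 5 of the 7, against 37.4%. All 3 motifs were in the windows of 4 members (Klf1, Hba-a1, Hba-a2 and Hbb-bs), against 5.5% of all windows. A match of letters describes the sequence and is not evidence of binding. The Hba-a1 and Hba-a2 windows share an unbroken run of 297 bases, so each window differs from the other only in its outermost bases. Both are counted as separate windows above, though they are nearly the same sequence. The windows of Hbb-bs and Hbb-bt are less alike, with 219 of 293 aligned bases identical (74.7%).

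The tables carry a check of the genotype. Mettl3 had 17.4 RPKM in m6A-tagged, 11.2 RPKM in unbound and 19.6 RPKM in input RNA of Mettl3-deficient HSCs, against 36.1, 33.2 and 36.4 RPKM in wild-type HSCs. It was lower in all 3 fractions of the Mettl3-deficient HSCs and not at 0. Its log2 ratios of (RPKM + 1) were -1.02 in m6A-tagged, -1.48 in unbound and -0.86 in input RNA, so in input the difference was within 2-fold. Whether the counted region extends beyond the deleted part is not given in the sources used here. Library depths, worked out from the values, times 1e6 reads, were 9.42 to 33.59 in the Mettl3-deficient groups and 24.30 to 37.22 in the wild-type groups. Of the 10 HSC markers, 7 averaged at least 10 RPKM over the 6 groups, and all 10 summed to 964 RPKM in Mettl3-deficient input and 879 RPKM in wild-type input. The 6295 genes whose RPKM averaged 10 or more across the groups were compared as log2 ratios of (RPKM + 1), which understate the change of low genes, and a 2-fold difference (1 on the log2 scale) counted as higher or lower. With 1 deposited column per group no test across genes could be run. Of the members, 7 passed the 10 RPKM minimum, and Hba-a1 did not.

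In input RNA, 4 of the 7 members were at least 2-fold lower in Mettl3-deficient HSCs (Klf1, Gata1, Car1 and Hbb-bs) and 0 were higher. Of all 6295 genes, 6.67% were 2-fold lower and 2.38% higher. The members had a median log2 ratio of -1.47 in input, and all genes one of -0.05. In unbound RNA, 3 of 7 were lower (Gata1, Car1 and Hbb-bs) and 0 higher, where 22.7% of all genes were lower and 19.7% higher. In m6A-tagged RNA, 3 of 7 were lower (Klf1, Car1 and Hbb-bs) and 0 higher, where 7.15% of all genes were lower and 6.02% higher. Bulk RNA cannot tell fewer cells of a type from less RNA per cell, and this holds for every level below.

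**Figure D1:**
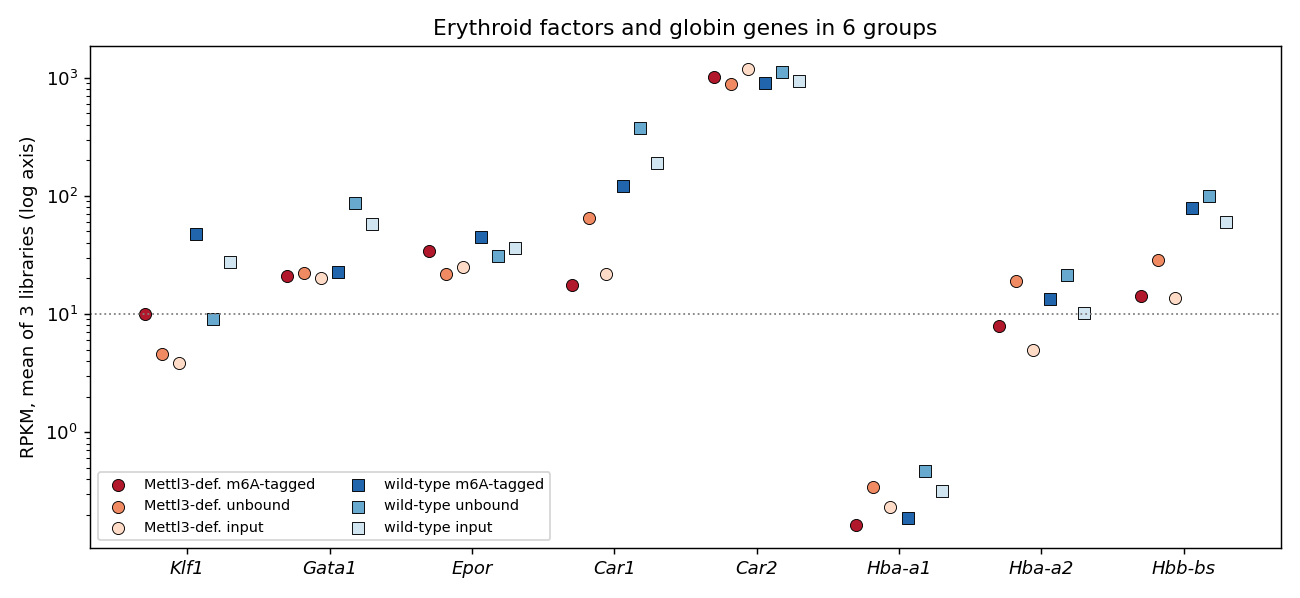
RPKM (log axis, mean of 3 libraries) of the 8 members with a row, in m6A-tagged, unbound and input RNA of Mettl3-deficient (circles) and wild-type (squares) HSCs; the dotted line is the 10 RPKM minimum. Car2 stands between 894 and 1193 RPKM, Hba-a1 below 1 RPKM, and the wild-type squares of Car1 and Hbb-bs lie above all their circles.

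Klf1, the CACCC-binding activator of adult globin genes, lies on chromosome 8 from 84901982 to 84905291 (GRCm38). It had 9.96 RPKM in m6A-tagged, 4.54 RPKM in unbound and 3.87 RPKM in input RNA of Mettl3-deficient HSCs, against 47.3, 9.02 and 27.7 RPKM in wild-type HSCs. Every Mettl3-deficient value was below its wild-type counterpart, by a log2 ratio of -2.14 in m6A-tagged, -0.85 in unbound and -2.56 in input RNA. Klf1 was the member with the highest m6A-tagged level relative to input and to unbound RNA in both genotypes. Its m6A-tagged over input log2 ratio was 1.17 in Mettl3-deficient HSCs, where 1.37% of genes were at least 2-fold higher, and 0.75 in wild-type HSCs.

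Gata1, which binds GATA sites and is needed for red cell and megakaryocyte maturation, lies on chromosome X from 7959260 to 7976663. It had 20.9, 22.2 and 20.2 RPKM in m6A-tagged, unbound and input RNA of Mettl3-deficient HSCs, against 22.6, 86.9 and 57.5 RPKM in wild-type HSCs. The Mettl3-deficient values were nearly the same in all 3 fractions, while the wild-type values were low only in m6A-tagged RNA. The log2 ratio between genotypes was -0.11 in m6A-tagged, -1.92 in unbound and -1.47 in input RNA.

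Epor, the receptor through which erythropoietin acts, lies on chromosome 9 from 21958897 to 21963576. It had 34.1, 21.6 and 24.8 RPKM in m6A-tagged, unbound and input RNA of Mettl3-deficient HSCs, against 45.3, 30.8 and 36.1 RPKM in wild-type HSCs. Its order of fractions was the same in both genotypes, with m6A-tagged highest and unbound lowest. The genotype log2 ratios ran from -0.52 to -0.40, below the 2-fold threshold in each fraction.

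Car1 and Car2 are neighbours on chromosome 3, Car1 from 14766214 to 14808365 and Car2 from 14886269 to 14900770, yet their values differed widely. Car1 had 17.6, 65.1 and 21.8 RPKM in m6A-tagged, unbound and input RNA of Mettl3-deficient HSCs, against 121, 377 and 188 RPKM in wild-type HSCs. This was the lowest ratio of the 7 members in every fraction, with log2 ratios of -2.71, -2.51 and -3.05. Car2 had 1013, 894 and 1193 RPKM in Mettl3-deficient HSCs, against 905, 1125 and 931 RPKM in wild-type HSCs. Its log2 ratios of 0.16, -0.33 and 0.36 were all within 2-fold. Car2 was the member with the highest level in each of the 6 groups. Of 16 carbonic anhydrase genes with a row, 3 passed the minimum, and Car1 was the only one of these 3 past 2-fold between genotypes in any fraction.

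Hba-a1 (chromosome 11, 32283672 to 32284486) and Hba-a2 (32296492 to 32297310) encode alpha globin, 1 of the 2 chains of adult haemoglobin. Hba-a1 was listed at 0.164, 0.341 and 0.231 RPKM in m6A-tagged, unbound and input RNA of Mettl3-deficient HSCs, against 0.189, 0.465 and 0.317 RPKM in wild-type HSCs, values that include the 1 read added to every gene in each library. Its reads could be solved in every library: 1, 1 and 0 reads in all in the m6A-tagged, unbound and input groups of Mettl3-deficient HSCs, against 2, 7 and 6 reads in the wild-type groups. The 0 reads allow a level of up to 0.183 RPKM in Mettl3-deficient input (3 reads over the group; counting error only). Hba-a2 had 7.97, 18.9 and 4.94 RPKM in Mettl3-deficient HSCs, against 13.5, 21.5 and 10.2 RPKM in wild-type HSCs, with log2 ratios of -0.69, -0.17 and -0.92. Its unbound value was the highest of the 3 fractions in both genotypes. The gene length solved from the RPKM values, as the smallest that fit, was 266 bases for Hba-a1 and 993 bases for Hba-a2. RefSeq gives gene spans of 815 and 819 bases. Reads of such near-identical copies can be assigned to either, so the split between the rows is uncertain; with both rows summed the input log2 ratio was -0.90.

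Hbb-bs, a beta globin gene of the haplotype that C57BL/6 mice carry, lies on chromosome 7 from 103826523 to 103827928. It had 14.2, 28.6 and 13.7 RPKM in m6A-tagged, unbound and input RNA of Mettl3-deficient HSCs, against 79.1, 99.6 and 59.9 RPKM in wild-type HSCs. All 3 Mettl3-deficient values lay below all 3 wild-type values, with log2 ratios of -2.40, -1.76 and -2.05. The series also lists Hbb-b1 and Hbb-b2, the names of the adult beta globin genes of another mouse haplotype. They are no members, and their sequences were not compared with that of Hbb-bs here. Hbb-b1 had 10.7, 26.8 and 14.4 RPKM in Mettl3-deficient HSCs, against 13.7, 24.5 and 13.1 RPKM in wild-type HSCs. Hbb-b2 had 38.4, 87.9 and 39.6 RPKM in Mettl3-deficient HSCs, against 59.7, 114 and 55.1 RPKM in wild-type HSCs. Neither was 2-fold lower in any fraction, with genotype log2 ratios from -0.62 to 0.13. Added to the member rows they change the call: Hba-a1, Hba-a2 and Hbb-bs together had an input log2 ratio of -1.85, and all 5 adult globin rows together one of -0.92. The 3 beta globin rows as a sum had an input log2 ratio of -0.91.

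**Figure D2:**
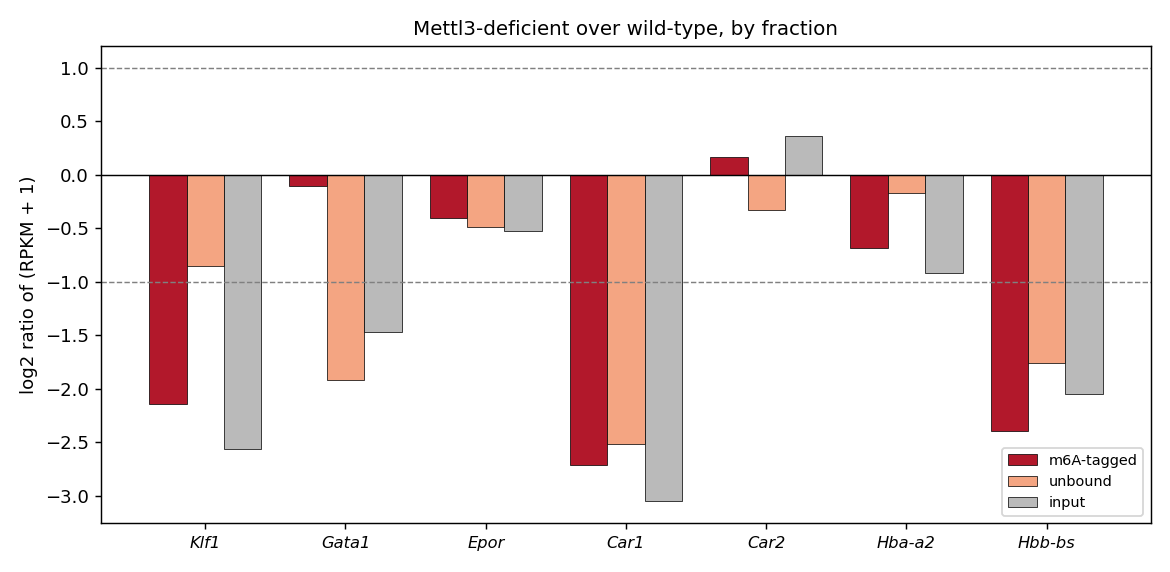
Log2 ratio of (RPKM + 1), Mettl3-deficient over wild-type, of the 7 members that passed the minimum, in m6A-tagged, unbound and input RNA; dashed lines mark 2-fold. Car1 and Hbb-bs lie beyond -1 in all 3 fractions, Klf1 in m6A-tagged and input RNA, and Gata1 in unbound and input RNA.

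The deposited means hide how the 3 libraries of a group differ, and for some members the reads of each library could be solved from the digits of the values. A gene length, taken as the smallest whole length that fit the values, could be solved for 38.4% of the 16052 genes with reads. The number of genes with solved reads differed by group, from 5057 in Mettl3-deficient m6A-tagged RNA to 6111 in Mettl3-deficient unbound RNA. Among the members, reads could be solved for Hba-a1 and Hba-a2 and, in 3 groups, for Klf1. Libraries are called a, b and c from the shallowest to the deepest of a group; these letters are not the submitters' replicate numbers and do not link libraries of different fractions. The reads of Gata1, Epor, Car1, Car2 and Hbb-bs could not be solved, so the spread behind their values is unknown.

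Where they could be solved to 1 answer, the reads of Hba-a2, Hbb-b1 and Hbb-b2 in wild-type HSCs came mostly from 1 library per fraction; Hbb-bs, the globin row with the highest wild-type input value, was not solved. In Mettl3-deficient input, libraries a, b and c held 29, 226 and 37 Hba-a2 reads, against 22, 96 and 996 in wild-type input. Scaled for depth, library c held 88.0% of the wild-type input level, and library b held 70.4% of the Mettl3-deficient one. In m6A-tagged RNA, the Mettl3-deficient libraries held 109, 123 and 517 Hba-a2 reads, against 144, 1153 and 36 in wild-type libraries. Here library b held 85.6% of the wild-type level. In unbound RNA the Mettl3-deficient libraries held 464, 77 and 349 reads, while the wild-type value allowed 2 solutions, 69, 145 and 1523 or 974, 126 and 523. The few Hba-a1 reads of wild-type HSCs were all 6 in library c of input, both in library b of m6A-tagged RNA and all 7 in library c of unbound RNA; the last is the top library of Hba-a2 in only 1 of its 2 solutions.

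The beta globin rows Hbb-b1 and Hbb-b2 had the same uneven libraries. Hbb-b1 had 62, 130 and 99 reads in Mettl3-deficient input, against 41, 45 and 432 in wild-type input, where library c held 80.6% of the level. Hbb-b2 had 82, 320 and 230 reads in Mettl3-deficient input, against 118, 109 and 1326 in wild-type input, where library c held 82.8%. In wild-type m6A-tagged RNA library b held 81.1% of Hbb-b1 and 80.9% of Hbb-b2, and in wild-type unbound RNA library c held 81.6% of Hbb-b1. For these rows the Mettl3-deficient m6A-tagged libraries were the most even, with 115, 124 and 109 Hbb-b1 reads. Mettl3-deficient unbound RNA was uneven too, with library a holding 70.2% of Hbb-b1, 61.7% of Hbb-b2 and 67.4% of Hba-a2. Such shares are common in these data: among genes with 100 to 5000 solved reads, at least 70% of the level was in 1 library for 16.1% in wild-type input, 44.3% in wild-type m6A-tagged and 32.6% in wild-type unbound RNA. In Mettl3-deficient HSCs the same held for 6.92% in input, 14.3% in m6A-tagged and 30.5% in unbound RNA. Library c alone reached that share for 9.88% of genes in wild-type input.

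**Figure D3:**
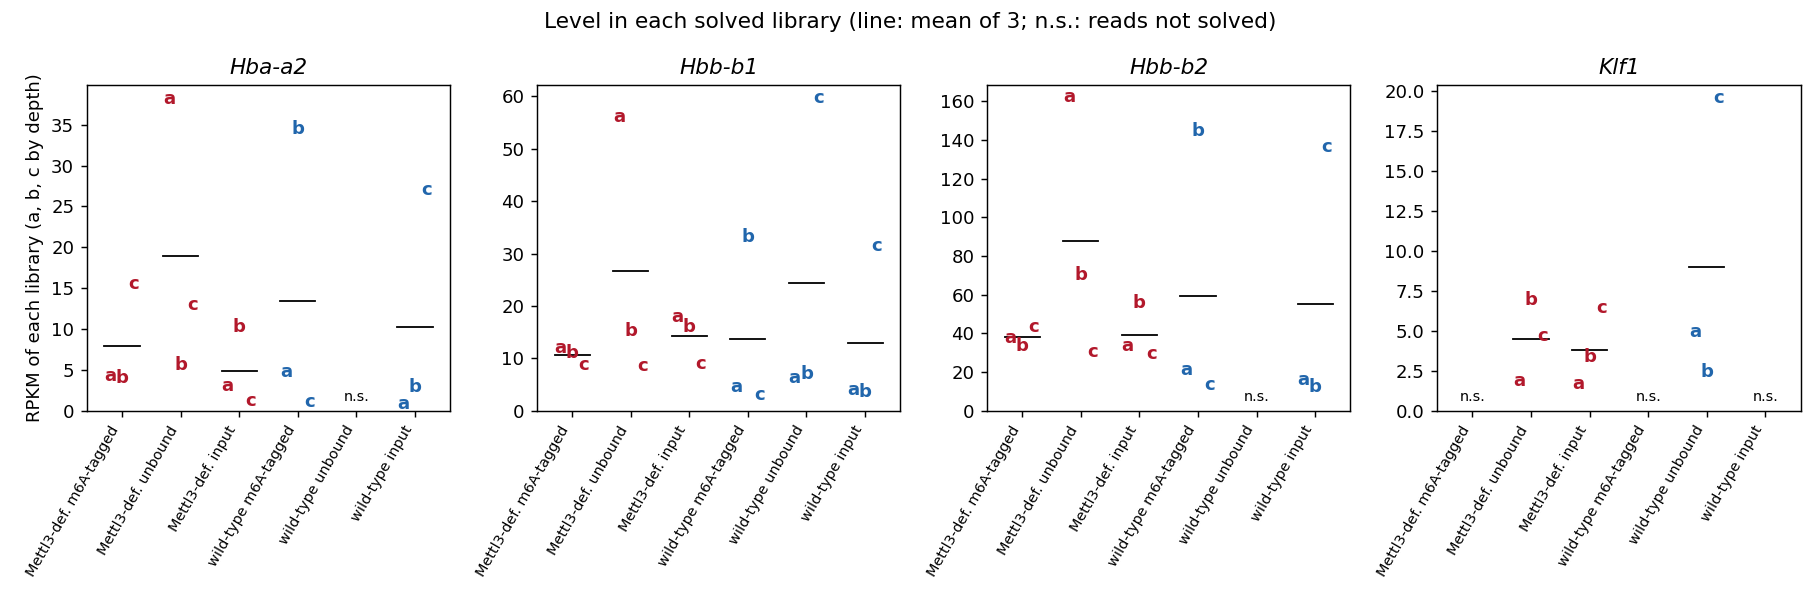
RPKM of each solved library (letters a, b and c, by depth) of Hba-a2, Hbb-b1, Hbb-b2 and Klf1, in Mettl3-deficient (red) and wild-type (blue) groups; lines are means of 3 libraries, and n.s. marks groups without a unique solution. In wild-type input, Hba-a2 stands at 27.0 RPKM in library c, against 0.782 RPKM in a and 2.89 RPKM in b.

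Leaving out the highest wild-type library alone turned the direction of the genotype comparison of Hba-a2 in input and m6A-tagged RNA. Hba-a2 averaged 4.88 ± 4.79 RPKM in Mettl3-deficient input and 10.2 ± 14.5 RPKM in wild-type input (SD, n = 3 each), and the libraries of the 2 genotypes overlapped. A two-sided exact permutation test of log2(reads per 1e6 + 1) gave p = 0.90 in input and p = 1.0 in m6A-tagged RNA, where the smallest p that 3 against 3 allows is 0.10. Over the 17 such tests of members, those of Hba-a1 with its few reads among them, all Benjamini-Hochberg adjusted values were 1.0. Without wild-type library c the input log2 ratio of Hba-a2 was 1.05 in place of -0.93, and without wild-type library b the m6A-tagged ratio was 1.19 in place of -0.69. The input ratio of Hbb-b2 also changed sign, to 1.41 without its top wild-type library, against -0.47 with it, and that of Hbb-b1 was positive both ways, at 1.67 without it and 0.12 with it. Leaving out only the highest wild-type library can only raise such a ratio. Without the top library of both genotypes the input log2 ratio was 0.16 for Hba-a2, 1.09 for Hbb-b2 and 1.49 for Hbb-b1. The m6A-tagged ratio of Hba-a2 was then 0.40.

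Klf1 had a similar wild-type library in unbound RNA. Its libraries held 35, 148 and 197 reads in Mettl3-deficient HSCs, against 183, 100 and 824 in wild-type HSCs, and library c held 72.7% of the wild-type level. Klf1 averaged 4.50 ± 2.54 RPKM in Mettl3-deficient unbound RNA and 8.99 ± 9.29 RPKM in wild-type unbound RNA (SD, n = 3 each), with an exact permutation p of 0.60. Without wild-type library c alone the log2 ratio was 0.23 in place of -0.86, and without the top library of both genotypes it was -0.13. In Mettl3-deficient input Klf1 had 24, 114 and 298 reads. Its m6A-tagged reads there were 78, 704 and 661 or 143, 1013 and 237, and both solutions put most reads outside library a. Klf1 could not be solved in wild-type input or m6A-tagged RNA, the groups behind its largest genotype ratios, so it was not tested whether 1 library carries them.

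Genes of maturing red cells and of other blood lineages were high in the same wild-type libraries. Pklr, the red cell pyruvate kinase gene, had 0, 0 and 136 reads in Mettl3-deficient input, against 5, 0 and 1257 in wild-type input. Trim10, needed for late red cell maturation, had 0, 21 and 0 reads in Mettl3-deficient input, against 0, 130 and 1376 in wild-type input. Ermap, a red cell surface protein gene, had 0, 7 and 71 reads in Mettl3-deficient input, against 0, 28 and 2579 in wild-type input. So did a gene of another lineage: Cd79a, part of the B cell receptor, had 6, 4 and 0 reads in Mettl3-deficient input, against 16, 0 and 747 in wild-type input. In wild-type m6A-tagged RNA, where globin was high in library b, Pklr had 0, 1154 and 0 reads, Trim10 had 1, 1188 and 0, and Cd79a had 2, 1319 and 0. In wild-type unbound RNA, where library c was high, Slc4a1, the band 3 anion exchanger of red cells, had 207, 3 and 3144 reads, and Csf1r, a monocyte receptor, had 0, 2 and 1310.

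Among the solved globin, erythroid and marker genes with at least 100 reads in a group, 8 of 22 had at least 70% of their wild-type input level in library c, namely Hba-a2, Hbb-b1, Hbb-b2, Pklr, Trim10, Ermap, Cd79a and Ms4a1, a B cell surface gene. Of all solved genes, 9.88% had that share in library c of wild-type input. No gene of these 22 had it in library a or b, where 2.79% and 3.46% of all solved genes did. In wild-type m6A-tagged RNA 6 of 18 had it in library b, where 22.4% of all solved genes did, and in wild-type unbound RNA 9 of 25 had it in library c, Klf1 among them, where 13.6% of all solved genes did. In Mettl3-deficient input 2 of 27 had it in library c and 2 in library b, where 3.01% of all solved genes did in either library. Other genes did not follow the globin library, red cell genes among them: Trim58, a red cell maturation gene, had 774, 531 and 432 reads in wild-type input, and the blood group gene Kel had 477, 1126 and 11 in wild-type unbound RNA. In wild-type input Gp1ba, a platelet receptor gene, had 809, 642 and 305 reads, and Hoxb5, an HSC marker, had 387, 313 and 167. The part of these libraries in the lower values of Gata1, Car1 and Hbb-bs was not tested, because their reads could not be solved.

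**Figure D4:**
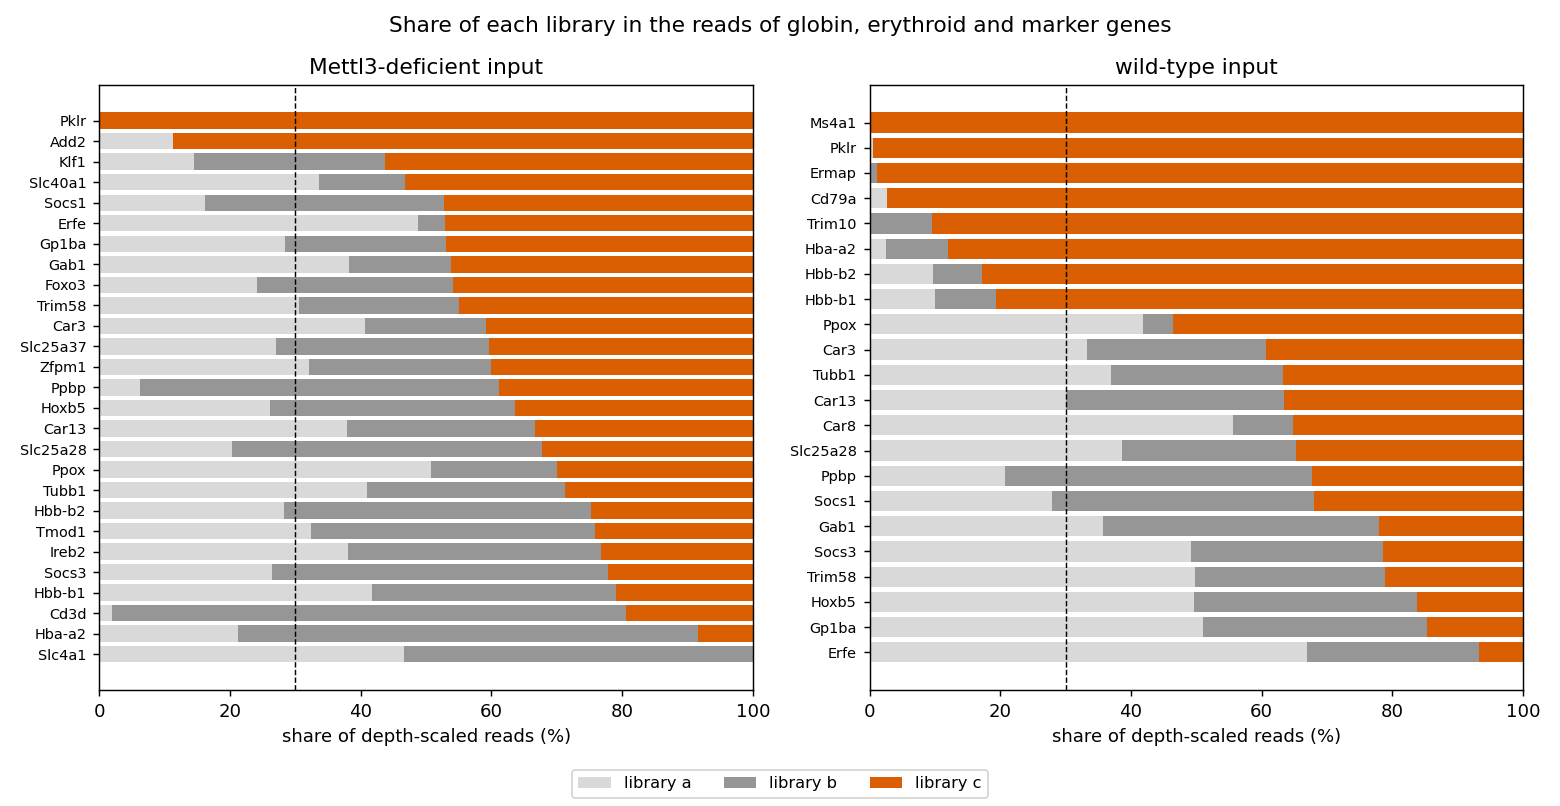
Share (%) of libraries a, b and c in the depth-scaled reads of the solved globin, erythroid and marker genes with at least 100 reads, in Mettl3-deficient input (left, 27 genes) and wild-type input (right, 22 genes), ordered by library c. Where the orange bar starts left of the dashed line, library c holds at least 70%, which holds for 8 genes on the right and 2 on the left.

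Some marker lists were lower together with the members, and others were not. In Mettl3-deficient input 6.67% of all genes were 2-fold lower and 2.38% higher, and the input counts below stand beside these shares. The late erythroid markers Slc4a1, Alas2, Epb42, Rhag, Rhd, Kel and Hemgn summed to 33.9, 17.2 and 30.2 RPKM in m6A-tagged, unbound and input RNA of Mettl3-deficient HSCs, against 90.0, 97.3 and 100.4 RPKM in wild-type HSCs. Of these 7, 2 passed the minimum, Rhd, which was 2-fold lower in every fraction, and Hemgn, which had an input log2 ratio of -0.21. Neutrophil and monocyte markers summed to 1889, 3028 and 1661 RPKM in Mettl3-deficient HSCs, against 9433, 11589 and 8259 RPKM in wild-type HSCs. In input 9 of the 11 tested were 2-fold lower, with a median log2 ratio of -2.90, although the sort excludes Lineage-positive cells. Of 5 tested megakaryocyte and platelet markers 3 were lower in input, led by Pf4, a platelet granule gene, at -2.41. Of 7 tested HSC markers 1, Ly6a at 1.55, was 2-fold higher in input and 0 were lower, with a median of 0.01. The 6 B cell markers with a row summed to 91.5 RPKM in Mettl3-deficient input and 94.8 RPKM in wild-type input, and Cd79b, the only one tested, had a log2 ratio of 0.10 in input and 2.47 in unbound RNA. Ms4a1 had reads in wild-type input library c alone, 155 of them, and 0 in the other 17 libraries. The part of other cell types in the members' values was not tested.

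The other erythroid genes gave a mixed picture. All counts here stand beside 6.67% of all genes lower and 2.38% higher in input. Of 15 tested erythroid transcription factors and cofactors, 5 were 2-fold lower in Mettl3-deficient input (Klf1, Gata1, Trim28, Zfpm1 and Ldb1) and 1 higher, with a median log2 ratio of -0.85. Zfpm1, the Gata1 partner known as FOG1, had 7.04 RPKM in Mettl3-deficient input and 24.5 RPKM in wild-type input. Nfe2, a factor of red cells and platelets, went the other way, with 535 RPKM in Mettl3-deficient input and 227 RPKM in wild-type input. Gata2, which precedes Gata1 in blood progenitors, had 150 RPKM in Mettl3-deficient input and 111 RPKM in wild-type input, within 2-fold.

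Of 5 tested red cell membrane and cytoskeleton genes, 2 were lower in Mettl3-deficient input and 0 higher, the blood group gene Rhd at a log2 ratio of -2.36 and the water channel gene Aqp1 at -1.33. Of 13 tested genes of Epo receptor signalling, 2 were higher and 0 lower, so this list did not follow Epor's own small difference. Both that rose past 2-fold are STAT5-induced feedback inhibitors of cytokine receptors: Cish at 2.02, with 132 RPKM in Mettl3-deficient input and 31.8 RPKM in wild-type input, and Socs2 at 1.91. Of 10 tested heme synthesis genes 1 was lower, the coproporphyrinogen oxidase gene Cpox at -1.81, a share near the 6.67% of all genes. Of 7 tested iron genes and 7 tested red cell enzyme and maturation genes, 0 differed 2-fold in input.

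The fractions were then set against each other within each genotype. Relative to input, 1 of 7 members was 2-fold higher in m6A-tagged RNA of Mettl3-deficient HSCs (Klf1) and 0 lower, where 1.37% of all genes were higher and 1.45% lower. In wild-type HSCs 0 were higher and 1 was lower (Gata1, at -1.31), where 3.69% of all genes were higher and 5.23% lower. Relative to unbound RNA, m6A-tagged RNA of Mettl3-deficient HSCs had 2 members lower, Car1 at -1.83 and Hba-a2 at -1.15, where 16.9% of all genes were lower, and 0 higher, where 33.7% were. In wild-type HSCs Klf1 was higher at 2.27, where 31.5% of genes were, and Gata1 at -1.90 and Car1 at -1.63 were lower, where 19.3% of genes were. Car1 was lower in m6A-tagged than in unbound RNA of both genotypes. Hbb-bs was within 2-fold, at -0.96 in Mettl3-deficient and -0.33 in wild-type HSCs, and Car2 and Epor were within 2-fold too.

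**Figure D5:**
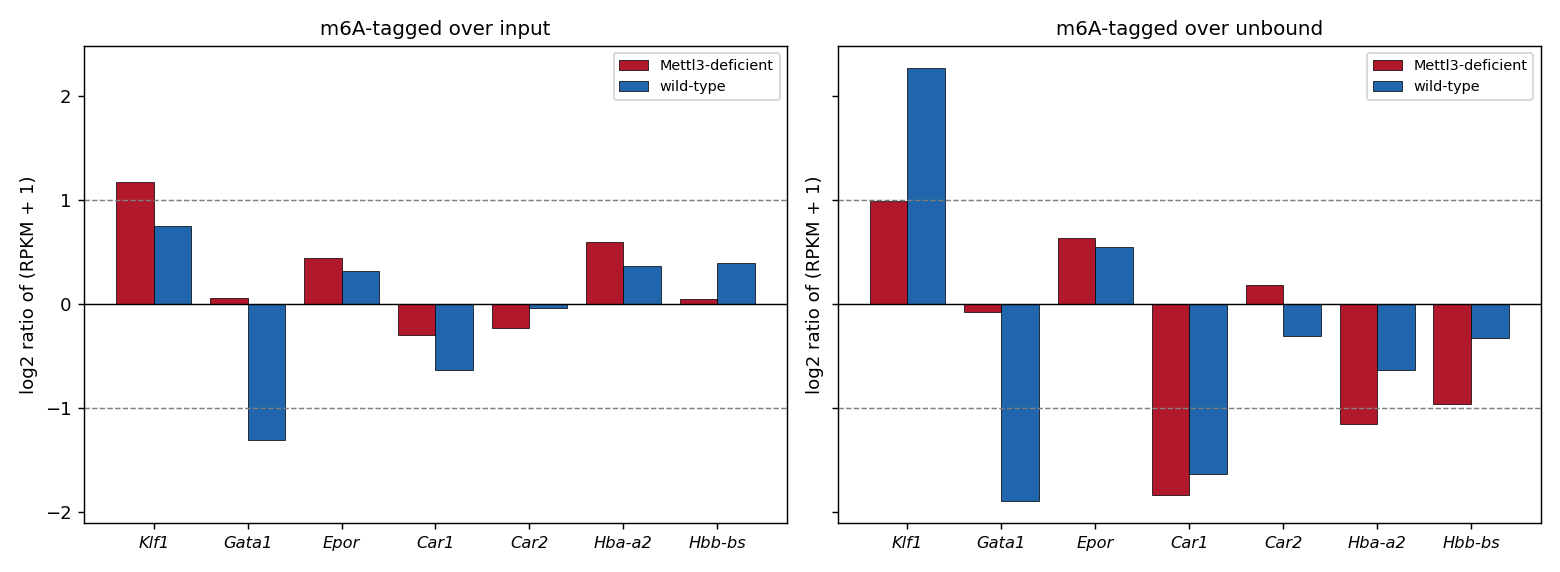
Log2 ratio of (RPKM + 1) of m6A-tagged over input (left) and m6A-tagged over unbound RNA (right) of the 7 members, with Mettl3-deficient (red) before wild-type (blue) HSCs; dashed lines mark 2-fold. Gata1 is near 0 in Mettl3-deficient HSCs and beyond -1 in wild-type HSCs in both panels, and Klf1 is above 0 in all 4 ratios.

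The group means of the 4 globin rows that passed the minimum were higher in unbound RNA than in input in both genotypes. In Mettl3-deficient HSCs 3 of 7 members were higher in unbound RNA, Hba-a2 at 1.75, Car1 at 1.53 and Hbb-bs at 1.01, where 18.5% of all genes were higher, and 0 lower, where 29.5% were. In wild-type HSCs Hba-a2 was higher at 1.00, where 4.61% of genes were higher, and Klf1 was lower at -1.52, where 25.5% were lower. This Hba-a2 call was lost at 0.99 with Hba-a1 and Hba-a2 summed. It was also lost with 5 RPKM added, with median-ratio scaling or with the sum without globin genes as scale. The Hba-a2 libraries of Mettl3-deficient unbound RNA and input overlapped, at 18.9 ± 17.1 RPKM and 4.88 ± 4.79 RPKM (SD, n = 3 each), with an exact permutation p of 0.20. Without library a of Mettl3-deficient unbound RNA, which held 464 of its reads, both calls of Hba-a2 against that fraction were lost, with unbound over input at 0.80 and m6A-tagged over unbound at -0.20. Without the top library of both groups, unbound over input in Mettl3-deficient HSCs was 1.69 for Hba-a2, 0.67 for Hbb-b2 and -0.06 for Hbb-b1.

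The difference between genotypes in m6A-tagged over input RNA passed 2-fold for 1 of 7 members, Gata1, at 1.36 (Mettl3-deficient minus wild-type log2 ratio), where 7.31% of genes were as much higher and 2.91% as much lower. Against unbound RNA, Gata1 differed by 1.81, where 23.7% of genes were as much higher, and Klf1 by -1.28, where 22.8% were as much lower. The m6A-tagged values of Gata1 were nearly equal, at 20.9 RPKM in Mettl3-deficient and 22.6 RPKM in wild-type HSCs, while its unbound and input values were lower in Mettl3-deficient HSCs. The cofactors Trim28 at 1.80, Zfpm1 at 1.31 and Myb, a progenitor factor, at 1.07 shared this direction against input, so 4 of the 15 tested factors were higher and 0 lower. Against unbound RNA the list was mixed, with 3 of the 15 higher, 5 lower and a median difference of -0.68. Globin rows stayed within 2-fold in both differences. Both differences use the same m6A-tagged columns, so they are not separate results.

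Genes with the most similar profile over the 6 groups were sought by the root mean square difference of centred log2(RPKM + 1). The globin members summed were most like Mgst2, with a difference of 0.14, and then Bex4, Snf8, Myl10 and Mt2, at up to 0.24. Mgst2 had 12.3, 25.1 and 7.54 RPKM in m6A-tagged, unbound and input RNA of Mettl3-deficient HSCs, against 42.1, 64.4 and 34.2 RPKM in wild-type HSCs. Klf1 was most like Slc7a5 and St3gal5, Gata1 like Odc1 and Tm9sf3, Epor like Tprkb and Twf2, Car1 like Hist1h2ao and Lgals3, and Car2 like Pitpnb and Ndufa10. Epor and Car2, the members that changed least, had the closest matches, at 0.07 to 0.11, and Car1 the most distant, at 0.28 and 0.30.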

How the data were processed

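RNA of the 3 fractions was made into libraries by Smart-seq2 and read from both ends (150 bases), per the labels' protocols. Each genotype has 1 table, with an RPKM column for every fraction, as the authors deposited it. The build was mm10, with Picard and edgeR among the tools, per the submitters' processing notes. The steps before counting are not stated in the sources here. From the deposited values, an RPKM column is the average of 3 libraries after adding 1 read per gene and library. Genes without reads (6986) therefore gave their own lengths and, for each group, a combined value of the 3 depths. The separate depths of the libraries came from genes with few reads. For a gene with reads, the smallest whole length that fit its values was taken, and longer lengths were not excluded. Reads of single libraries were taken where 1 set of whole reads solved the value at that length, so they hold for that length only. In a simulation of 6000 genes, 99.87% of the 21156 values solved were right. This share is over all solved values. It is not given separately for values with many reads mostly in 1 library, such as those of Hba-a2, so their accuracy is not known from it. Floors cover counting error only; amplified reads are not independent molecules.

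Log2 ratios of (RPKM + 1) were computed for genes averaging 10 RPKM or more. The planned test across libraries could not be run on averaged columns; exact permutation tests used scipy 1.17.1, numpy 2.4.6 and pandas 2.3.3. The members, gene lists and settings were chosen with earlier results of these data known. Named genes are the 9 members, up to 4 genes per list with the largest log2 ratio past 2-fold, the most similar genes and Mettl3; genes named for their reads in single libraries, and Ldb1, Nfe2, Gata2 and the listed markers, were chosen after their values were seen. Alternatives changed the added constant, the scaling, the minimum and the globin rows, and left out single libraries. Some genes of the lists are not reported here.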

Additional observations from a re-analysis of the deposited data

How the results depend on the processing

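No paired analysis was possible because the deposited columns are means over 3 libraries and the solved libraries carry no replicate number. Of the 7 members tested, the counts past 2-fold between genotypes (4 in input, 3 in unbound and 3 in m6A-tagged RNA) stayed within 1.5 times of these under every change of constant and scaling, and no member's called ratio changed sign under them. With a minimum of 50 RPKM only Car1 and Car2 were tested, and the count was 1 in each of these 3 comparisons, 1 for m6A-tagged over unbound RNA in either genotype and for unbound over input in Mettl3-deficient HSCs, and 0 for the other 5 comparisons. For unbound over input in wild-type HSCs the 2 members called became 1 with 5 RPKM added, with median-ratio scaling, with the sum without globin genes as scale or with Hba-a1 and Hba-a2 summed, and 5 with upper-quartile scaling. For m6A-tagged over unbound RNA in Mettl3-deficient HSCs the 2 became 4 with 0.1 RPKM added and 1 with 5 RPKM added, and for m6A-tagged over input there the 1 became 0 with 5 RPKM added. Upper-quartile scaling moved the median ratio of all genes by up to -0.65, in m6A-tagged over unbound RNA of Mettl3-deficient HSCs, and by 0.14 for the genotypes' input. The rows Hbb-b1 and Hbb-b2, whose addition was chosen after the values were seen, took the genotype ratio of the globin sum from past 2-fold to within it in input and unbound RNA.

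Leaving out each library in turn gave Hba-a2 genotype log2 ratios from -1.82 to 1.05 in input and from -1.49 to 1.19 in m6A-tagged RNA. Its m6A-tagged over input ratio ran from -0.19 to 1.49 in Mettl3-deficient and from -1.52 to 2.35 in wild-type HSCs. In Mettl3-deficient HSCs its m6A-tagged over unbound ratio ran from -1.95 to -0.20 and its unbound over input ratio from 0.80 to 2.65. Klf1 ran from -1.27 to 0.23 between genotypes in unbound RNA, and from -0.17 to 0.65 for unbound over input in Mettl3-deficient HSCs. Libraries could not be left out for the other members. Hba-a1, with 0 to 7 reads per group, was in the permutation tests but not in the 2-fold counts or the leaving out of libraries. The cause of its low reads was not tested.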
